A study of Mus musculus with 2 samples.

Results

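The S100 genes encode small calcium-binding proteins, and 7 of them are described here in B16F10 mouse melanoma cells: S100b, S100a1, S100a4, S100a6, S100a10, S100a11 and S100a13. They were taken by symbol from the 18 symbols beginning with S100 among the 32285 genes of the deposited table. They were selected on earlier results of these same barcodes, and their levels, site ratios and co-expression count as used in that choice, so the values below are descriptions and carry no test. S100 proteins are built from a pair of EF-hand loops, and most of them form dimers that open a binding face for other proteins when calcium rises. They are intracellular switches of the cytoskeleton, of membrane-bound annexins and of enzymes, and several of them are also released and act outside the cell. In melanoma the family is best known through S100B, a tissue and serum marker of pigment cell tumours in human medicine, and through S100A4, which has been studied as a promoter of metastasis.

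B16F10 is a pigmented line derived from a C57BL/6 mouse melanoma. The tumour cells, which carried GFP, were recovered from the knees of Prf1-/- mice (called Prf1-/- bone), from lung tumours of Prf1-/- mice (Prf1-/- lung) and from lung tumours of wild-type mice (WT lung). Perforin, the product of Prf1 that killer lymphocytes use to open their targets, was missing in the Prf1-/- host animals, while the melanoma cells were of 1 line in all 3 groups, so that their RNA does not check the genotype. Live GFP-positive cells without the leukocyte marker CD45 were sorted, marked by source with 3 hashtag antibodies and measured as 1 pool by droplet RNA sequencing of the 3′ ends of transcripts. Knees were digested for 30 min and lung tumours for 20 min, both at 37 °C, so that site and digestion cannot be told apart. The number of mice and their age are not given in the sources used here, and each condition was 1 hashtag group with no replicate. All intervals are 95% intervals that cover counting error only and no spread between animals, so no p-value is given.

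A barcode stands for 1 droplet, and its unique molecular identifiers (UMIs) count captured transcripts. Of 15961 barcodes in the RNA matrix, 4204 were also in the hashtag matrix, and 11757 were not listed there. A barcode was kept with at least 1000 genes and at most 15% mitochondrial UMIs, and it was assigned to a source where its largest hashtag count was at least 2 times the second. This left 385 barcodes of Prf1-/- bone, 1520 of Prf1-/- lung, 1227 of WT lung and 6270 unlisted barcodes, whose source is unknown. Total UMIs lay between 1299480 in Prf1-/- bone and 16458141 in unlisted barcodes, and the median per barcode between 2418 in unlisted barcodes and 3107 in Prf1-/- bone. All 9 melanoma markers were detected in every group, with sums between 11164 UMIs per 1000000 (CPM) in Prf1-/- bone and 14713 CPM in Prf1-/- lung. Lung epithelial markers summed to 19.2 CPM in Prf1-/- bone, 13.8 CPM in Prf1-/- lung and 204 CPM in WT lung, and T and NK cell markers were at 0 in all 3. Of the 10 epithelial markers, 3 were detected in Prf1-/- bone, 7 in Prf1-/- lung and 8 in WT lung, with Epcam at 0 in each. Monocyte, macrophage and dendritic cell markers summed to 4.62 CPM in Prf1-/- bone, 4.65 CPM in Prf1-/- lung and 21.0 CPM in WT lung. Fibroblast and stroma markers summed to 7.70, 6.98 and 11.9 CPM in these groups and to 36.5 CPM in unlisted barcodes. Their part in the S100 levels was not tested, but ratios without barcodes holding 2 or more UMIs of other cell types' markers are given below.

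S100b lies on chromosome 10 (chr10:76253836-76261319, build GRCm38.p6), and the other 6 lie on chromosome 3. S100a1 (chr3:90511034-90514330) and S100a13 (chr3:90514233-90524581) are encoded on opposite strands and overlap by 98 bases at their starts. S100a4 (chr3:90603770-90606045) and S100a6 (chr3:90612894-90614414) are encoded on the same strand with 6848 bases between them. S100a5 (chr3:90606480-90611784) lies in that gap and had no UMI in any of the 4 groups. S100a11 (chr3:93520496-93526288) and S100a10 (chr3:93555117-93564645) lie further along the chromosome, 28828 bases apart. The 11 other S100 symbols had few UMIs over the 4 groups: 2 had none, 7 had 1 to 10, and S100a16 had 149 UMIs (5.65 CPM). S100pbp, at 12.6 CPM, encodes a binding protein and not an S100 protein. S100a8 and S100a9, the calprotectin genes of neutrophils, had 5 UMIs each.

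Promoter windows of 6 of the 7 genes were taken from RefSeq (GRCm38.p6), each from 250 bases before to 50 bases after the gene's start. S100a10 had no entry. The windows of S100a4 and S100a6 are shown because these genes had the lowest ratios of Prf1-/- bone over Prf1-/- lung. That of S100a11 is shown because its gene had the ratio nearest 1, and that of S100b because its gene lies apart from the rest. Capitals mark matches to 6 motifs searched on both strands: the AP-1 site TGANTCA, the M-box core CATGTG, the SOX core ACAAAG, the TEAD core GGAATG, the TATA box TATAAA and the GC box GGGCGG.
S100a4 (chr3:90603520-90603819, + strand): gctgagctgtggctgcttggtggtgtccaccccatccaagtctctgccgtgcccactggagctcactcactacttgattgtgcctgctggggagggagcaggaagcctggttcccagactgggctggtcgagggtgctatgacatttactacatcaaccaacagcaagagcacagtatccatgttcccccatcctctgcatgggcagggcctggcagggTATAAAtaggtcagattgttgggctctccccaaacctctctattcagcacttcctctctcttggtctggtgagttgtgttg
S100a6 (chr3:90612644-90612943, + strand): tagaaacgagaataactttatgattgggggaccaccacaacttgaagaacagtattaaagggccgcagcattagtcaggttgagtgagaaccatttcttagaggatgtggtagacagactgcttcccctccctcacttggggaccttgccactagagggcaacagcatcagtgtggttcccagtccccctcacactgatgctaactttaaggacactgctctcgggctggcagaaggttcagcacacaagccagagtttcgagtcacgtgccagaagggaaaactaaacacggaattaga
S100a11 (chr3:93520246-93520545, + strand): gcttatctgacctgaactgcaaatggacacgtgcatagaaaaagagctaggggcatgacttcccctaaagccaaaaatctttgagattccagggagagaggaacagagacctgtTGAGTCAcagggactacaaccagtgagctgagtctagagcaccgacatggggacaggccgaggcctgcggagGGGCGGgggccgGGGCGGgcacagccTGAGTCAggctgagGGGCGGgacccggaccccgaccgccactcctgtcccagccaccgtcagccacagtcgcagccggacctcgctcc
S100b (chr10:76253586-76253885, + strand): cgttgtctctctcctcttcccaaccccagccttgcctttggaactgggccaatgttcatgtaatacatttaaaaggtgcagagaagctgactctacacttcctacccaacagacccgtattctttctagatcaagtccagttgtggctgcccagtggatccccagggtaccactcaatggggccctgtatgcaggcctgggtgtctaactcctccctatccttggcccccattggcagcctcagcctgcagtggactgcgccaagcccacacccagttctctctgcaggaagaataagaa
The S100a4 window held 1 TATA box, 31 bases before the start. The S100a11 window held 2 AP-1 sites, at 136 and 38 bases before the start, and 3 GC boxes, and its matches did not overlap each other. No motif of the 6 was found in the windows of S100b, S100a6, S100a1 and S100a13. Among all 32851 promoter windows of the table, 7.81% held the AP-1 site, 14.2% the M-box core, 18.7% the SOX core, 14.7% the TEAD core, 13.6% the TATA box and 35.7% the GC box. The windows of S100a1 and S100a13 share 204 bases read in opposite directions.

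In Prf1-/- bone the family as a whole stood lower than in either lung group, and S100a4 and S100a6 were the furthest apart. The 7 genes summed to 882 CPM (832 to 934) in Prf1-/- bone, 1559 CPM (1523 to 1595) in Prf1-/- lung and 1495 CPM (1457 to 1534) in WT lung. The order of the genes also differed by site: S100a11 had the highest level in Prf1-/- bone, while S100a1 had the highest in both lung groups. In Prf1-/- bone, however, the intervals of S100a11 (237 to 293) and S100a1 (196 to 248) overlapped. Levels of different genes are compared here per UMI, since 3′ counting does not scale with transcript length, but capture may differ between transcripts. For bulk sums of this kind, fewer expressing cells and less RNA per cell cannot be told apart, and the share of barcodes with a UMI is given for that reason where it differs most.

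**Figure D1:**
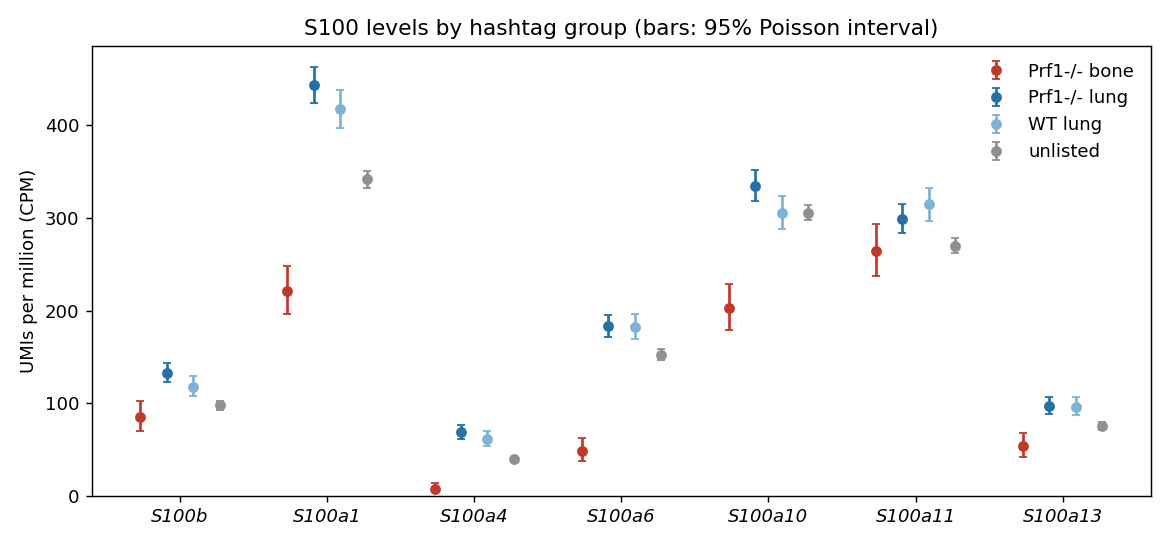
Level of each S100 gene in UMIs per 1000000 (CPM) on a linear axis, by hashtag group; bars are 95% Poisson intervals for counting error. Prf1-/- bone lies below the lung groups for every gene, with S100a4 at 7.70 CPM and S100a11 closest to them at 264 CPM.

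S100b, which binds p53 and cytoskeletal proteins and marks melanocytes and glia, had 84.6 CPM (69.6 to 102) in Prf1-/- bone, 132 CPM (122 to 143) in Prf1-/- lung and 118 CPM (107 to 129) in WT lung. The bone interval lay below both lung intervals. The ratio of Prf1-/- bone over Prf1-/- lung was 0.639 (0.517 to 0.784).

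S100a1, best known as a regulator of calcium handling in heart muscle, had 221 CPM (196 to 248) in Prf1-/- bone, 443 CPM (425 to 463) in Prf1-/- lung and 417 CPM (397 to 438) in WT lung. It was the most abundant S100 gene in the lung groups, and its level in Prf1-/- bone gave a ratio of 0.498 (0.439 to 0.564) over Prf1-/- lung. A UMI of S100a1 was found in 46.8% of Prf1-/- bone barcodes, 62.6% of Prf1-/- lung barcodes and 63.7% of WT lung barcodes.

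S100a4, a binding partner of non-muscle myosin IIA, had 10 UMIs or 7.70 CPM (3.69 to 14.2) in Prf1-/- bone, 68.3 CPM (61.1 to 76.2) in Prf1-/- lung and 61.6 CPM (54.0 to 69.9) in WT lung. It was the least abundant of the 7 in every group. The ratio of Prf1-/- bone over Prf1-/- lung was 0.113 (0.0535 to 0.210), a level 8.88-fold lower. A UMI was found in 2.34% of Prf1-/- bone barcodes, 14.7% of Prf1-/- lung barcodes and 12.6% of WT lung barcodes. With each barcode thinned at random to 1500 UMIs, so that depth is equal, the share was 1.30% in Prf1-/- bone, 8.43% in Prf1-/- lung and 7.99% in WT lung.

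S100a6, or calcyclin, a partner of annexins and of the ubiquitin ligase adaptor CacyBP, had 48.5 CPM (37.3 to 62.0) in Prf1-/- bone, 183 CPM (171 to 196) in Prf1-/- lung and 182 CPM (169 to 196) in WT lung. The ratio of Prf1-/- bone over Prf1-/- lung was 0.265 (0.202 to 0.342). Its UMIs were unevenly spread over barcodes. In Prf1-/- bone 6.23% of barcodes (24) had a UMI. The top 5% of barcodes, which took in most of these, held 93.7% of its UMIs, with up to 12 UMIs in 1 barcode. In Prf1-/- lung 25.7% of barcodes had a UMI and the top 5% held 45.5% of its UMIs, and in WT lung 25.8% had a UMI and the top 5% held 50%. The most UMIs of S100a6 in 1 barcode were 11 in Prf1-/- lung and 30 in WT lung. The variance over the mean of its thinned UMIs was 2.05 in Prf1-/- bone, 2.23 in Prf1-/- lung and 2.50 in WT lung, while that of S100a13 lay between 0.962 and 1.06 in the 4 groups. The top 5% of barcodes held more of the UMIs of S100a4, at 54.5% in Prf1-/- lung and 61.3% in WT lung. That share also rises where fewer barcodes have a UMI, as was so for S100a4. By the variance over the mean of thinned UMIs S100a4 lay below S100a6, at 1.51 in Prf1-/- lung and 1.44 in WT lung. Both the share of barcodes with S100a6 and its level were thus lower in Prf1-/- bone.

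S100a10, which holds annexin A2 at the membrane as a tetramer and has lost calcium binding itself, had 202 CPM (179 to 228) in Prf1-/- bone, 335 CPM (318 to 352) in Prf1-/- lung and 306 CPM (288 to 323) in WT lung. The ratio of Prf1-/- bone over Prf1-/- lung was 0.605 (0.529 to 0.689). S100a11, a partner of annexin A1, had 264 CPM (237 to 293) in Prf1-/- bone, 299 CPM (284 to 315) in Prf1-/- lung and 315 CPM (297 to 333) in WT lung. Its bone interval overlapped that of Prf1-/- lung and lay below that of WT lung, and the ratio of Prf1-/- bone over Prf1-/- lung was 0.882 (0.781 to 0.993). S100a13, which takes part in the export of FGF1 from cells, had 53.9 CPM (42.0 to 68.1) in Prf1-/- bone, 97.3 CPM (88.6 to 107) in Prf1-/- lung and 96.2 CPM (86.7 to 107) in WT lung, with a ratio of 0.554 (0.424 to 0.713) for Prf1-/- bone over Prf1-/- lung.

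A gene was called where its ratio reached 1.5-fold and the counting interval did not include 1. For Prf1-/- bone over Prf1-/- lung, 6 of the 7 genes were called lower, none higher, and S100a11 neither. Over the 7695 genes with a mean of at least 10 CPM, 4.85% were called lower and 2.64% higher. The median log2 ratio was -0.85 over the 7 genes and -0.03 over all genes, and since the genes were chosen with these results known nothing is read from the difference. For Prf1-/- bone over WT lung, which uses the same bone barcodes, 5 of the 7 were called lower, against 5.29% of 7707 genes, and none higher, against 2.28%. S100b and S100a11 were in neither class there, at ratios of 0.719 (0.579 to 0.887) and 0.839 (0.742 to 0.947). S100a10 passed narrowly, at 0.662 (0.577 to 0.758), and kept its call under 5 of 11 alternative settings, with ratios of 0.629 to 0.792 over them; TMM-scaled totals, for example, gave 0.677. S100b was called lower than in WT lung with a hashtag ratio of at least 5, at 0.632. Melanoma markers were also lower in Prf1-/- bone, with a sum of 11164 CPM against 14713 CPM in Prf1-/- lung, and their part in the S100 ratios was not tested. With at least 2000 genes per barcode, which left 47 barcodes of Prf1-/- bone and 145 of Prf1-/- lung, the calls held for S100a1, S100a4 and S100a6, at ratios of 0.612, 0.146 and 0.394, and were lost for S100b (0.804), S100a10 (0.717) and S100a13 (0.755). Over WT lung this setting left S100a4 (0.158) and S100a6 (0.469), a value more than 1.5 times the 0.266 given by all kept barcodes, and took the calls from S100a1 (0.745), S100a10 (0.792) and S100a13 (0.686). Thinning to 1500 UMIs put S100a6 lower, at 0.165 over Prf1-/- lung and 0.170 over WT lung, and took the call over Prf1-/- lung from S100b, at 0.754 (0.562 to 0.996). A hashtag ratio of at least 5 put S100a4 at 0.0738 over Prf1-/- lung and 0.0780 over WT lung.

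**Figure D2:**
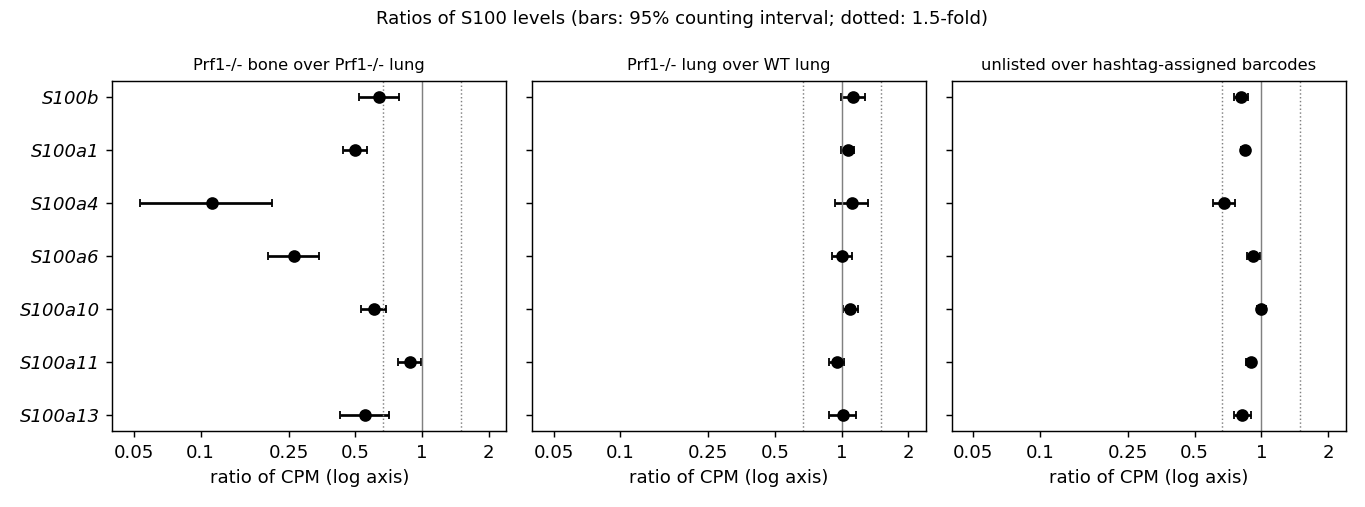
Ratio of CPM of each S100 gene on a log axis for 3 comparisons; points are ratios, bars 95% counting intervals, and dotted lines 1.5-fold either way. In the left panel S100a4 (0.113) and S100a6 (0.265) lie furthest from 1, and in the middle panel all genes lie between 0.952 and 1.13.

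The comparison of Prf1-/- lung with WT lung asks whether the S100 genes differ in lung tumours of hosts without perforin. None of the 7 was called, while 0.684% of 7748 genes were called higher and 1.07% lower. The ratios of Prf1-/- lung over WT lung ran from 0.952 for S100a11 (0.881 to 1.03) to 1.13 for S100b (0.996 to 1.27). For S100a6 the ratio was 1.00 (0.909 to 1.11) and for S100a4 it was 1.11 (0.936 to 1.32), so that a difference of 1.5-fold lies outside each interval for these pooled sums. In the cluster of 78 Prf1-/- lung and 75 WT lung barcodes led by Mgp, Mxd3 and Iqgap3, however, the S100a4 ratio was 4.24 (1.58 to 14.3). S100a10 was the one gene of the 7 whose interval left out 1, at 1.10 (1.02 to 1.18), short of the call. This comparison shares the Prf1-/- lung barcodes with the bone comparison. The median log2 ratio was 0.09 over the 7 genes and 0.00 over all genes.

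Unlisted barcodes, which come from an unknown mixture of the 3 sources, were set beside the 3132 hashtag-assigned ones. Their S100 levels were 97.7 CPM for S100b, 342 CPM for S100a1, 39.1 CPM for S100a4, 152 CPM for S100a6, 306 CPM for S100a10, 270 CPM for S100a11 and 74.8 CPM for S100a13. The hashtag-assigned barcodes together had 120, 404, 57.7, 165, 306, 301 and 91.2 CPM for the same genes in that order. None of the 7 was called, against 0.0905% of 7738 genes called higher and 0.207% lower. S100a4 lay furthest from 1, at a ratio of 0.678 (0.605 to 0.760), and S100a10 nearest, at 1.00 (0.956 to 1.05). S100a4 was called lower with barcodes thinned to 1500 UMIs, at 0.637 (0.545 to 0.745), and by the mean of per-barcode CPM, at 0.645. With at least 2000 genes per barcode S100a4 (0.410), S100a6 (0.442) and S100b (0.579) were called lower.

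Free RNA in droplets can place UMIs in barcodes that do not express a gene, so shares were set beside 69 barcodes of lung epithelium with at least 10 epithelial and at most 5 melanoma marker UMIs. Those barcodes were shallow, with a median of 562 UMIs, against 2418 to 3107 in the melanoma groups. A UMI of S100a4 was found in 0 of the 69, which allows a share of up to 5.21% by the exact binomial interval, and one of S100b in 1.45%. S100a11, S100a10, S100a6 and S100a1 were found in 23.2%, 17.4%, 14.5% and 11.6% of them. With both kinds of barcode thinned to 562 UMIs, 35 epithelial barcodes remained, and S100b was found in 5.86% of melanoma barcodes against 2.86% of epithelial ones. S100a1 was found in 17.8% of melanoma barcodes against 17.1% of epithelial ones, S100a6 in 7.64% against 11.4%, S100a11 in 14.8% against 28.6% and S100a13 in 4.62% against 5.71%. In the 69 epithelial barcodes S100a11 was at 435 CPM and S100a6 at 362 CPM, above their 281 and 157 CPM over the 4 groups. Free RNA and expression by the epithelial cells themselves cannot be told apart here. The epithelial shares thus do not measure free RNA for the S100 genes. S100a10 was found in 14.5% of melanoma barcodes against 8.57% of epithelial ones, and S100a4 in 2.36% of melanoma barcodes against 0 of 35 epithelial ones. The pigment gene Pmel was found in 76.8% of melanoma barcodes against 20.0% of epithelial ones. Epithelial UMIs were highest in WT lung, and their part in the S100 levels there was not tested; without barcodes holding 2 or more UMIs of other cell types' markers, no S100 gene was called in the lung comparison.

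Co-expression was described over 9395 barcodes thinned to 1500 UMIs each, as Pearson's r of log2(UMIs + 1). All of these barcodes come from 1 library and were brought to the same depth, and r values of sparse counts are small by nature. Of the 21 pairs, 20 had a positive r and 17 were positive in each of the 4 groups, with a median of 0.069. Over all genes ranked, the median r with a single S100 gene lay between -0.0015 for S100a1 and 0.0015 for S100a10, and the 95th percentile between 0.026 for S100a13 and 0.047 for S100a6; since the 7 genes were chosen with these results known, nothing is read from the difference. The strongest pair was S100a6 with S100a10, at an r of 0.30 over all groups, 0.23 in Prf1-/- bone, 0.26 in Prf1-/- lung, 0.32 in WT lung and 0.31 in unlisted barcodes. S100a10 was found in 56.9% of the 1416 barcodes with S100a6 and in 27.3% of those without it.

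S100a4 with S100a6, which lie on either side of S100a5, came next, at an r of 0.25 over all groups. The r of this pair was 0.17 in Prf1-/- bone, 0.25 in Prf1-/- lung, 0.29 in WT lung and 0.24 in unlisted barcodes. Both were found in 251 barcodes where independence at the same shares would give 82.7, a ratio of 3.03. S100a6 was found in 45.7% of barcodes with S100a4 and in 13.2% of those without it. In Prf1-/- bone 1 barcode held both. The other pairs above an r of 0.1 were S100a6 with S100a11 (0.14), S100a4 with S100a10 (0.13) and S100a10 with S100a11 (0.12). Every pair above 0.1 was thus made of S100a4, S100a6, S100a10 and S100a11.

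**Figure D3:**
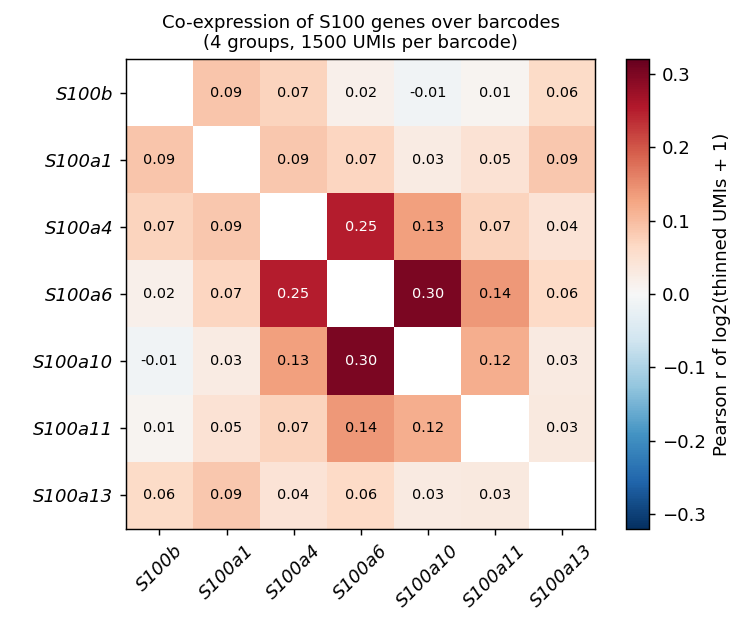
Pearson r of log2(thinned UMIs + 1) for each pair of S100 genes over 9395 barcodes of 4 groups; the colour runs from blue (negative) to red (positive). S100a6 with S100a10 (0.30) and S100a4 with S100a6 (0.25) stand out, and S100b with S100a10 (-0.01) is the one value below 0.

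No pair of S100 genes showed opposite patterns in the sense of a clearly negative r. The lowest was S100b with S100a10, at -0.010 over all groups, -0.049 in Prf1-/- bone, -0.059 in Prf1-/- lung, 0.010 in WT lung and -0.00027 in unlisted barcodes. Both genes were found in 410 barcodes where independence would give 428. S100b with S100a6 had an r of 0.015, and its sign differed between groups, with 0.066 in Prf1-/- bone and -0.030 in Prf1-/- lung. S100b with S100a11 was at 0.008. S100b went instead with S100a1 (0.088), S100a4 (0.072) and S100a13 (0.060), values too small to be read as findings in counts this sparse. That of S100b with S100a4 was uneven by group, from 0.010 in WT lung to 0.15 in Prf1-/- bone, where 2 barcodes held both. Over all groups 11.3% of barcodes held S100b without S100a4 or S100a6, 15.2% held S100a4 or S100a6 without S100b, 3.07% held both kinds and 70.5% held neither. In Prf1-/- bone S100b alone was found in 12.2% and S100a4 or S100a6 alone in 3.64%, while in Prf1-/- lung these shares were 13.2% and 18.7%. The shares of S100b alone in Prf1-/- bone and Prf1-/- lung lay within each other's counting interval, and those of S100a4 or S100a6 alone did not overlap.

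The genes of all 3889 with a UMI in at least 5% of thinned barcodes were ranked by r with each S100 gene. S100a6 had S100a10, the LIM domain gene Crip1 (0.28) and the intermediate filament gene Vim (0.28) at the top, and S100a4 had S100a6, Crip1 (0.14) and Vim (0.14). S100a10 had S100a6, Vim (0.26) and Tagln2, which encodes transgelin-2 (0.24), and S100a11 had S100a6, Vim (0.14) and the galectin gene Lgals1 (0.13). S100a1 had Ptgds, a prostaglandin D synthase gene (0.27), the lipase gene Mgll (0.24) and the pigment gene Dct (0.19). S100b had the same 3 genes in another order, Mgll (0.14), Dct (0.13) and Ptgds (0.12). S100a13 had S100a1 (0.087), Ptgds (0.077) and Mgll (0.076), values too small to be read as findings. S100a4, S100a6, S100a10 and S100a11 thus had Vim among their leading genes, and S100b and S100a1 had Mgll, Ptgds and Dct.

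At the other end of the ranking, the histone variant gene H2afz was lowest for S100a1 (-0.19), S100a6 (-0.17) and S100a4 (-0.10). The prothymosin gene Ptma was lowest for S100b (-0.098), the nucleophosmin gene Npm1 for S100a11 (-0.083) and the chaperone gene Hsp90aa1 for S100a13 (-0.089), values likewise too small to be read as findings. S100a10 had the glutathione transferase gene Gsta4 (-0.11) at this end, a gene at 749 CPM in Prf1-/- bone, 446 CPM in Prf1-/- lung and 389 CPM in WT lung. Gsta4 thus stood the other way round from S100a10 by site, and the pooled r holds this difference too. Within groups the r of Gsta4 with S100a10 was -0.061 in Prf1-/- bone, -0.170 in Prf1-/- lung, -0.090 in WT lung and -0.103 in unlisted barcodes. The values in Prf1-/- bone and WT lung are likewise too small to be read as findings. Crip1 followed S100a6 by site, at 32.3 CPM in Prf1-/- bone, 99.9 CPM in Prf1-/- lung and 90.3 CPM in WT lung, as did Vim, at 1411 CPM in Prf1-/- bone, 2662 CPM in Prf1-/- lung and 2404 CPM in WT lung.

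The S100 genes were also set against cell division, by 6 cycling markers (Mki67, Top2a, Ube2c, Prc1, Cdk1 and Ccnb1) in thinned barcodes. Over the 4 groups 2159 barcodes had at least 2 UMIs of these markers and 5483 had none. S100a4 was at a ratio of 0.522 (0.414 to 0.653) in barcodes with cycling markers over those without, S100a1 at 0.539 (0.499 to 0.582) and S100a6 at 0.558 (0.498 to 0.624). S100a13 had 0.626 (0.533 to 0.732) and S100b 0.645 (0.561 to 0.738). S100a11 differed less, at 0.795 (0.734 to 0.861), and the interval of S100a10 included 1, at 0.942 (0.874 to 1.01). S100a6 lay further below 1 than S100a10, its closest partner by r, in each lung group: S100a6 had ratios of 0.439 (0.319 to 0.592) in Prf1-/- lung and 0.374 (0.259 to 0.525) in WT lung, and S100a10 had 1.01 (0.837 to 1.20) in Prf1-/- lung and 0.763 (0.603 to 0.958) in WT lung. The summed cycling markers were close between sites, at 771 CPM in Prf1-/- bone, 766 CPM in Prf1-/- lung and 759 CPM in WT lung. The share of barcodes in a cluster led by division genes was not, as given below.

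**Figure D4:**
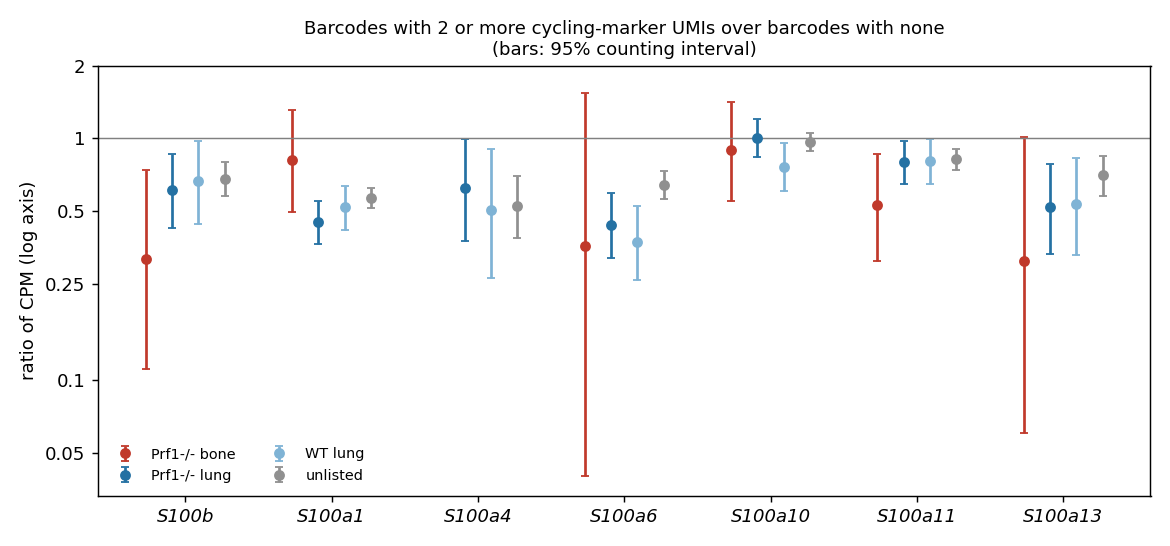
Ratio of CPM on a log axis in barcodes with 2 or more cycling-marker UMIs over barcodes with none, by gene and hashtag group; bars are 95% counting intervals, and S100a4 in Prf1-/- bone, with no UMI in the cycling barcodes, is not drawn. S100a1 and S100a6 lie below 1 in both lung groups and in unlisted barcodes, and S100a10 lies near 1 in Prf1-/- lung and in unlisted barcodes.

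Barcodes were grouped into 6 clusters without the S100 genes, and the clusters are called by their 3 leading genes. These names do not give cell types. S100a6 was highest in the cluster led by Kcnj13, Lgals7 and Serpinb1a (2880 barcodes), at 282 CPM, while S100b was highest in the cluster led by Col1a1, Col1a2 and Nckap5 (2482 barcodes), at 175 CPM. Col1a1 itself was at 36.9 CPM in the latter, where the pigment cell genes Dct (4924 CPM) and Mlana (2945 CPM) were at their highest among the 6 clusters. In the Col1a1 cluster S100a6 was at 152 CPM, and in the Kcnj13 cluster S100b was at 112 CPM, so that the order of these clusters was opposite for the pair. S100a10 (368 CPM) and S100a11 (374 CPM) were also highest in the Kcnj13 cluster, and S100a1 (515 CPM), S100a4 (74.5 CPM) and S100a13 (111 CPM) in the Col1a1 cluster. S100a4 and S100a6 thus had their highest levels in different clusters, although barcodes that held one held the other more often than independence gives. In the cluster led by the division genes Fbxo5, Exo1 and Aspm (2872 barcodes), S100b was at 55.9 CPM, S100a1 at 202 CPM, S100a4 at 21.3 CPM and S100a6 at 79.9 CPM, the lowest of the clusters with at least 100 barcodes for each of these genes.

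Sites were unevenly spread over the clusters. The Col1a1 cluster held 3.64% of Prf1-/- bone, 35.9% of Prf1-/- lung and 31.9% of WT lung barcodes. The Fbxo5 cluster held 42.1% of Prf1-/- bone, 22.1% of Prf1-/- lung and 20.6% of WT lung barcodes, and the Kcnj13 cluster 31.9% of Prf1-/- bone, 32.0% of Prf1-/- lung and 30.0% of WT lung barcodes. The cluster led by Mgp, Mxd3 and Iqgap3, where Mki67 was highest (494 CPM), held 0.260%, 5.13% and 6.11% of these groups in that order. The summed cycling markers, by contrast, were close between sites, and why these measures differ was not tested. Bone barcodes were thus few where S100b, S100a1, S100a4 and S100a13 were highest and many where S100b, S100a1, S100a4, S100a6 and S100a13 were lowest among clusters of at least 100 barcodes, and the pooled ratios of Prf1-/- bone hold this difference as well as any within clusters. Within clusters the difference by site was repeated for some of the genes. The clusters with at least 30 barcodes of both Prf1-/- bone and Prf1-/- lung were the Kcnj13 cluster (123 barcodes of Prf1-/- bone, 487 of Prf1-/- lung), the Fbxo5 cluster (162 of bone, 336 of lung) and a cluster led by Sftpc, Gbp4 and Sftpa1 (84 of bone, 69 of lung, which are 21.8% and 4.54% of these groups). The Sftpc cluster is not named as epithelium: Pmel was at 3008 CPM and Dct at 2684 CPM there, against 470 CPM of Sftpc. Its next leading genes were Cxcl9, Iigp1 and H2-Aa. All 385 Prf1-/- bone barcodes together held 25 UMIs of epithelial markers. For S100a4 the ratio of Prf1-/- bone over Prf1-/- lung was 0.106 (0.0216 to 0.319) in the Kcnj13 cluster. It was 0.0882 (0.0104 to 0.338) in the Fbxo5 cluster and 0.164 (0.0176 to 0.750) in the Sftpc cluster. These S100a4 ratios rest on 3, 2 and 2 UMIs in Prf1-/- bone, so their size is poorly fixed. For S100a6 the ratio was 0.188 in the Kcnj13 cluster, 0.470 in the Fbxo5 cluster and 0.210 in the Sftpc cluster, and for S100a1 it was 0.619, 0.691 and 0.475 in these clusters. The intervals of all of these ratios lay below 1. S100a10 was at 0.383, 0.652 and 0.609 in these clusters, with all intervals below 1. S100b was at 1.04 (0.728 to 1.47) in the Kcnj13 cluster, 0.719 (0.467 to 1.08) in the Fbxo5 cluster and 0.683 (0.374 to 1.23) in the Sftpc cluster, so that every interval included 1. S100a13 was at 0.778 (0.499 to 1.17) in the Kcnj13 cluster, 0.748 (0.461 to 1.18) in the Fbxo5 cluster and 0.396 (0.176 to 0.834) in the Sftpc cluster. S100a11 was at 0.747 (0.599 to 0.926) in the Kcnj13 cluster, 0.789 (0.648 to 0.956) in the Fbxo5 cluster and 0.816 (0.593 to 1.12) in the Sftpc cluster, short of 1.5-fold in each. The Col1a1 cluster held 14 bone barcodes, with too few UMIs to give a direction. There S100a6 had a ratio of 1.49 (0.734 to 2.71) and S100a1 one of 0.871 (0.555 to 1.30). S100a4, from 3 bone UMIs, had one of 0.738 (0.150 to 2.20).

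**Figure D5:**
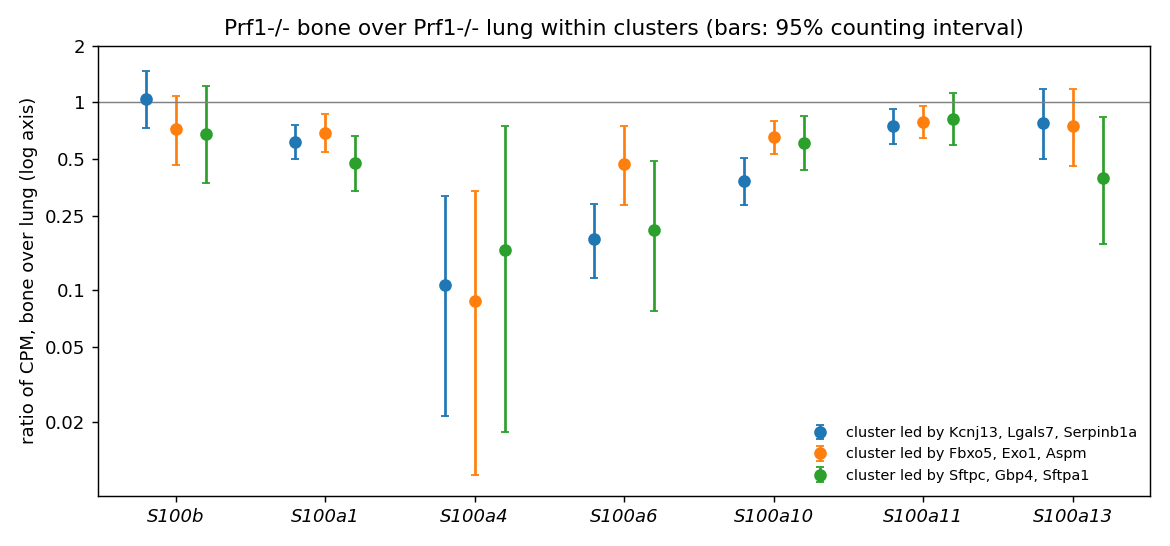
Ratio of CPM of Prf1-/- bone over Prf1-/- lung on a log axis within the 3 clusters that had at least 30 barcodes of each; bars are 95% counting intervals. S100a4 and S100a6 lie below 1 in all 3 clusters, and S100b lies at 1.04 in the cluster led by Kcnj13.

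A list of 38 genes of known S100 partners and targets was counted beside the family, of which 27 had a mean of at least 10 CPM in the bone comparison. For Prf1-/- bone over Prf1-/- lung 4 were called lower and none higher, a count set beside 4.85% of all genes called lower and 2.64% higher. Anxa2, the annexin that S100A10 binds, had 174 CPM in Prf1-/- bone, 316 CPM in Prf1-/- lung and 280 CPM in WT lung, with a ratio of 0.549 (0.476 to 0.632) for Prf1-/- bone over Prf1-/- lung. Ahnak, a scaffold of the complex of S100A10 and annexin A2, had 32.3 CPM in Prf1-/- bone, 122 CPM in Prf1-/- lung and 116 CPM in WT lung and a ratio of 0.266 (0.189 to 0.364). Tagln2 had a ratio of 0.548 (0.472 to 0.635) and Vim one of 0.530 (0.504 to 0.557). The other annexins were called in neither direction: Anxa1, the partner of S100A11, was at 0.821 (0.688 to 0.973) and Anxa5 at 0.719 (0.647 to 0.798). Myh9, the myosin partner of S100A4, was at 0.894 (0.722 to 1.10), Trp53, a partner of S100B, at 1.02 (0.806 to 1.28), and Cacybp, the partner of S100A6, at 1.28 (1.14 to 1.43). Of the receptors for released S100 proteins, named here after their values were seen, Ager (RAGE) had at most 1.55 CPM in any group, and Tlr4 had 8.46 CPM in Prf1-/- bone and 8.25 CPM in Prf1-/- lung. For Prf1-/- bone over WT lung 5 partners were called lower, Anxa2, Ahnak, Tagln2, Vim and the p53 ligase gene Mdm2 (0.665), and none higher, beside 5.29% of all genes called lower and 2.28% higher. None of 28 partners was called for Prf1-/- lung over WT lung, where 0.684% of all genes were called higher and 1.07% lower, or for unlisted over hashtag-assigned barcodes, where 0.0905% were called higher and 0.207% lower.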

How the data were processed

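The authors deposited UMI counts without normalization, in an RNA matrix and in a matrix of 3 hashtags. Cell Ranger 6.1.2, Seurat 4.3.0 and, as genome build, mm10 are given per the submitters' processing notes, and Cell Ranger 6.0.0 per the file headers. The 7 genes, the partner and marker lists and the comparisons were chosen with earlier results of these data known. Other genes were named where they were among the 3 with the highest or the 3 with the lowest r for a member, among partners called or at 50 CPM or more (a selection of these), or S100 symbols at 5 CPM or more.

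UMIs were summed per hashtag group and scaled to 1000000 of the group's UMIs (CPM). Levels carry exact Poisson intervals, shares Clopper-Pearson intervals and ratios conditional binomial intervals, all at 95%. Genes needed a mean of at least 10 CPM over both groups. Correlations, shares at equal depth and cycling ratios used barcodes thinned to 1500 UMIs, which left out 7 shallower barcodes of 9402. Clusters came from Leiden (leidenalg 0.10.2, scanpy 1.11.5) at resolution 0.5 on 30 principal components of 2000 variable genes, with the S100 genes left out. Scrublet marked 1 of 9644 barcodes (0.0104%), so doublets were not removed in effect. The 242 kept barcodes with no hashtag at 2 times the second entered no comparison. The steps were run in Python 3.11.15 with numpy 2.4.6, scipy 1.17.1 and pandas 2.3.3, with edgeR 4.0.16 in R 4.3.3 for TMM totals as an alternative scaling, and were tested on simulated data. The metadata table and the annotated object that the labels name were not used here, so source groups and clusters are rebuilt ones and can depart from the submitters' own. Promoter sequences are from RefSeq, GRCm38.p6.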

Additional observations from a re-analysis of the deposited data

How the results depend on the processing

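Each comparison was recomputed under 13 other settings, 1 of which, leaving out the deepest 5% of barcodes, was chosen after seeing the data. No called ratio crossed 1. Of the 7 genes, the 6 called lower for Prf1-/- bone over Prf1-/- lung became 3 with at least 2000 genes per barcode and 3 with a 2-fold threshold, and the 5 called lower for Prf1-/- bone over WT lung became 2 under each of these settings. For unlisted over hashtag-assigned barcodes the count of 0 became 3 with at least 2000 genes per barcode, 1 with thinned barcodes and 1 with the mean of per-barcode CPM. The cause was not tested. The count of 0 for Prf1-/- lung over WT lung did not change under any setting. Over all genes, 576 were called for Prf1-/- bone over Prf1-/- lung, against 367 with at least 2000 genes per barcode and 183 at 2-fold, and 584 for Prf1-/- bone over WT lung, against 375 and 157. For Prf1-/- lung over WT lung 136 were called, against 355 with no filter on low genes, 265 with at least 2000 genes per barcode, 220 with a hashtag ratio of 5, 256 with thinned barcodes and 16 at 2-fold. For unlisted over hashtag-assigned barcodes 23 were called, against 267, 263, 45, 68 and 5 under these settings in that order, and 38 without mitochondrial and ribosomal protein genes. Of the r values recomputed by group or setting, 140 lay within 1 SD of the groups' values from the pooled r and 49 did not. At a finer clustering (11 clusters) 13 of the highest and lowest cluster levels moved and 1 did not. No paired analysis was possible because each condition was 1 hashtag group. With 10 UMIs of S100a4 in Prf1-/- bone, depth limits that ratio and its pairs most.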

Other observations

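The S100 levels of barcodes outside the comparisons are given as values. In the 242 kept barcodes whose largest hashtag count was under 2 times the second (median 3695.5 UMIs), S100a1 had 339 CPM (304 to 378), S100a6 164 CPM (140 to 192), S100b 92.3 CPM (74.2 to 113) and S100a4 45.1 CPM (32.8 to 60.6). In the 2944 barcodes just outside the filter, with 800 to under 1000 genes, S100a6 had 285 CPM (270 to 301), S100a1 493 CPM (473 to 514), S100b 154 CPM (143 to 166) and S100a4 72.3 CPM (64.8 to 80.5). In the 3270 barcodes just inside it, with 1000 to under 1200 genes, S100a6 had 201 CPM (191 to 213), S100a1 452 CPM (436 to 469), S100b 126 CPM (118 to 135) and S100a4 54.5 CPM (49.1 to 60.5). The levels of these 4 genes were thus higher in the shallower of the neighbouring classes.

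Within clusters the lung comparison gave some ratios that the pooled values do not show. In the cluster led by Sftpc, Gbp4 and Sftpa1, with 69 barcodes of Prf1-/- lung and 137 of WT lung, the ratio of Prf1-/- lung over WT lung was 1.64 (1.25 to 2.15) for S100a1 and 0.644 (0.410 to 0.987) for S100a6. In the cluster led by Mgp, Mxd3 and Iqgap3, with 78 barcodes of Prf1-/- lung and 75 of WT lung, it was 4.24 (1.58 to 14.3) for S100a4, from 23 UMIs in Prf1-/- lung and 5 in WT lung, 2.28 (1.27 to 4.27) for S100a6, 2.09 for S100a10, with an interval above 1, and 1.04 (0.798 to 1.35) for S100a1. These were picked out after their values were seen.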
